A study of Mus musculus with 8 samples.

Results

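The genes described here are 33 markers of lymphocytes, taken from the 28295 genes of an RNA sequencing table of mouse epididymal fat by their symbols alone, with no measured value in the rule. All 33 were found. They cover T cells in general (9 genes), the CD4 and CD8 coreceptors (3), regulatory T cells (2), type 2 cells, meaning T helper 2 and group 2 innate lymphoid cells (2), natural killer (NK) and cytotoxic cells (11), B cells (5) and antibody-secreting cells (1). The fat came from male mice given a Western diet, rich in fat and sugar, over 8 weeks and then fasted for 6 h. Every mouse carried Cul3-flox/flox, in which both Cul3 alleles are flanked by recombination sites. The WT group (4 libraries) had no Cre, and the knockout group (4 libraries) was AdipoQ-Cre;Cul3-flox/flox, with Cre under the promoter of the adipocyte gene Adipoq. The Cre is thus aimed at adipocytes and not at lymphocytes, whose genes were read here in RNA of the whole tissue. No source used here gives an age. The labels speak of mice but do not tie a library to an animal, so p-values measure the spread between these libraries.

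T cells recognise antigen through a receptor that signals by way of the CD3 chains and the kinases LCK and ZAP70, and the coreceptors CD4 and CD8 sort them into helper and cytotoxic cells. NK cells kill without such a receptor and share with cytotoxic T cells the granzymes, perforin and the factors TBX21 and EOMES. B cells carry an immunoglobulin receptor with the chains CD79A and CD79B, and secrete it as antibody once they mature into plasma cells. Visceral fat holds all of these cells beside macrophages and adipocytes, among them regulatory T cells and group 2 innate lymphoid cells that respond to interleukin 33. In diet-induced obesity, CD8 T cells and other lymphocytes are known to collect there.

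Cul3, the gene aimed at, did not differ between the groups beyond the spread of the libraries. It stood at 11.2 ± 1.13 FPKM (fragments per kilobase of transcript and per 1000000 mapped) in WT and 12 ± 1.28 FPKM in the libraries labelled KO (SD, n = 4 each; exact two-sided permutation test, p = 0.429, where 4 against 4 can reach 0.0286). The groups are therefore called WT and KO-labelled. Reads recovered from the values came to 15.2 to 19.7 times 1000000 in the listed genes per library. Their share of the FPKM denominator was lower in every KO-labelled library (62.6% to 66.1%) than in any WT library (74.1% to 78.7%), and counts with every library scaled to an equal sum are given below. Under that scaling Cul3 was called higher in the KO-labelled libraries, by 0.37 on the log2 scale (limma, adjusted p = 0.0477). The labelled tissue showed its defining genes, with Adipoq at 452 to 745 FPKM in WT and 270 to 375 FPKM in the KO-labelled libraries. All 6 adipocyte markers fell (limma, adjusted p at most 0.0265). Of the epididymis, the neighbouring organ, Crisp1 reached 203 FPKM in KO1 and Lcn5 42.0 FPKM in WT2, so counts below are also given without both. Of the other cells, the fit of genes with a mean of at least 0.5 FPKM, where 11.7% of all genes were called higher and 18.6% lower, called 3 of 7 tested dendritic cell markers, 2 of 3 of neutrophils and eosinophils and 2 of 8 leukocyte-wide genes higher and 1 of 6 stromal markers lower. Without a filter the counts were 1, 2 and 0 higher and 0 lower (5 leukocyte-wide genes higher and 2 stromal markers lower at an unadjusted p under 0.05), and voom called 1, 2 and 0 higher and 0 lower. In both limma fits 0 of 6 mesothelial markers were called (0 unadjusted, 0 with voom).

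Over all 33 members, 27 had a higher mean FPKM in the KO-labelled libraries and 6 a lower one, with a median ratio of 2.67. The median ratio over all genes was 0.998. A fit of all 28295 genes without a filter (limma on log2(FPKM + 0.5), Benjamini-Hochberg adjustment) called 14 members higher at an adjusted p under 0.05, where 5.4% of all genes were called higher. It called 0 members lower, with 1 at an unadjusted p under 0.05, where 7.81% of all genes were called lower. In 15 members every KO-labelled library lay above every WT library, a pattern shown by 8.65% of all genes, and in 0 every one lay below, against 10.7% of all genes. Voom on the recovered reads, which could be read back for 29 members, called 14 higher and 0 lower (1 lower unadjusted), against backgrounds of 8.89% and 11.6%. Without WT2 and KO1 the unfiltered fit called 6 members higher, and it called 7 without WT1, 7 without WT2, 8 without KO2 and 9 without KO3.

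Most of these genes were scarce. The mean FPKM over the 8 libraries was under 0.5 in 20 members and at least 0.5 in 13. Under it lay Cd3e, Cd3d, Cd3g, Cd5, Cd6, Cd4, Cd8a, Cd8b1, Foxp3, Ctla4, Gata3, Tbx21, Eomes, Ncr1, Klrb1c, Prf1, Ifng, Ms4a1, Cd79a and Pou2af1. The unfiltered fit called 8 of these 20 higher and 0 lower (0 lower unadjusted), where 1.89% and 0.705% of all genes under the limit were called. At or above it lay Lck, Zap70, Il7r, Ptprcap, Il1rl1, Klrd1, Il2rb, Nkg7, Gzma, Gzmb, Cd79b, Ighm and Jchain. Just under the limit stood Cd79a at 0.497 and Cd4 at 0.494 FPKM, and just above it Zap70 at 0.50 FPKM. In the fit of the 14400 genes past this limit, the main fit, 8 of the 13 members were called higher and 1 lower, beside 11.7% and 18.6% of all tested genes. Members that passed only through high values in the KO-labelled group had to differ, so this count supports nothing. Scaling every library to an equal sum turned the 1689 higher and 2683 lower genes of that fit into 4226 and 1190, moved the median fold change over all tested genes on the log2 scale from -0.02 to 0.24, and called 9 members higher and 0 lower. Without KO2, 4 members were called higher. Below, an adjusted p is limma's with Benjamini-Hochberg adjustment, from the main fit for those 13 and from the unfiltered fit for the other 20. Log2 fold changes are KO-labelled minus WT on the log2(FPKM + 0.5) scale, where changes of scarce genes come out too small, and their errors are standard errors.

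**Figure D1:**
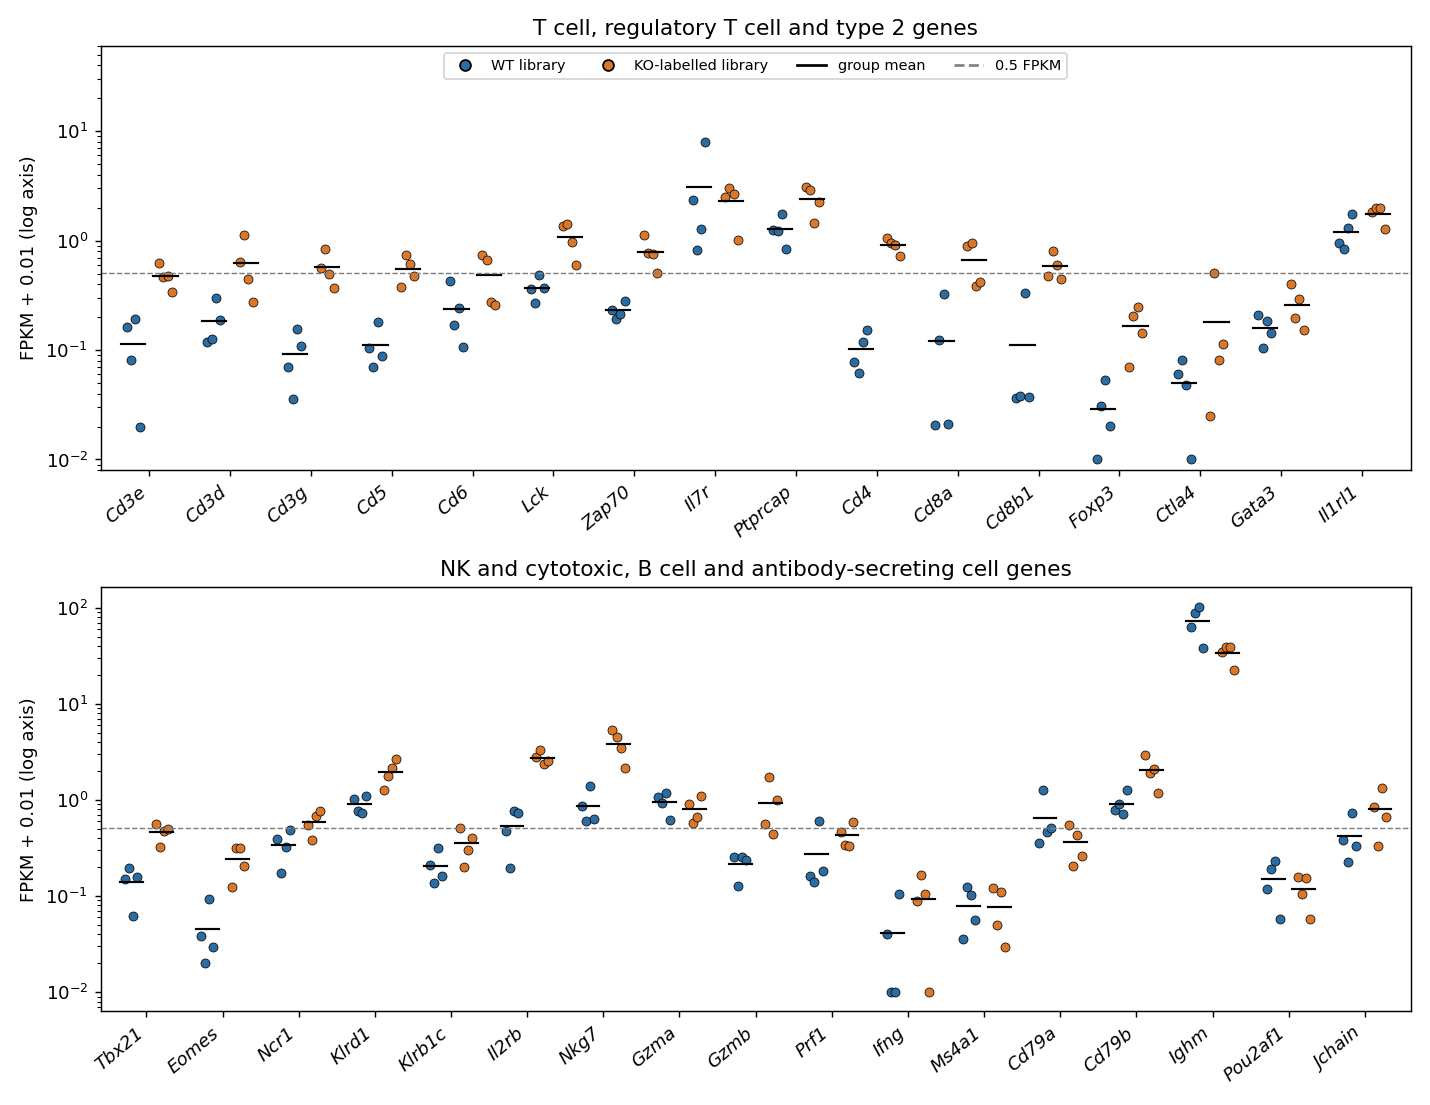
FPKM of the 33 lymphocyte genes in each library (log axis, 0.01 added so that values of 0 can be drawn), with WT in blue, KO-labelled in orange, the group mean as a bar and the dashed line at 0.5 FPKM. The orange points of Cd4, from 0.711 to 1.04 FPKM, stand apart from the blue ones, which reach 0.141 FPKM, whereas those of Ms4a1, Gzma and Il7r lie among the blue.

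Of the CD3 chains, which carry the T cell receptor's signal into the cell, Cd3e and Cd3g were called higher in the KO-labelled fat and Cd3d was not. Cd3e (chromosome 9, 44998740 to 45009627) was at 0.154, 0.0716, 0.182 and 0.00997 FPKM across WT1 to WT4 and then at 0.614, 0.450, 0.466 and 0.327 FPKM in KO1 to KO4. All 4 KO-labelled libraries lay above all 4 WT libraries, and the lowest, WT4, held 1 recovered read. Cd3e rose by 0.68 ± 0.14 on the log2 scale (adjusted p = 0.0180, n = 4 and 4), from a mean of 0.104 ± 0.0784 to 0.464 ± 0.118 FPKM (SD). Its call was lost without WT2 or KO3 (adjusted p at most 0.0518) and without WT2 and KO1 (0.0892). Cd3g, its neighbour, was at 0.0600, 0.0255, 0.147 and 0.0995 FPKM in WT and at 0.556, 0.836, 0.480 and 0.358 FPKM in the KO-labelled libraries. The groups again did not overlap, and Cd3g rose by 0.84 ± 0.16 (adjusted p = 0.010; 0.0666 without WT2 and KO1). Cd3d lay at 0.108 to 0.288 FPKM in WT and 0.267 to 1.12 FPKM in the KO-labelled libraries, where KO4 fell below WT3. It did not pass the test, at 0.68 ± 0.23 (adjusted p = 0.0932). Cd3d was called in 2 of 18 alternatives, over which the adjusted p ranged from 0.0369 to 0.283.

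The 3 CD3 genes sit side by side on chromosome 9, and Cd3g and Cd3d start 1355 bases apart in opposite directions. Their promoters are shown because these neighbours shared their direction. Each line gives the 250 bases upstream of the start on the gene's own strand, 5′ to 3′, from RefSeq (GRCm38.p6), for which 24 of the 33 members had an entry. Capitals mark core letters of factors known in lymphocytes, searched on both strands: TGTGGT for RUNX, CAGGAA for ETS and AGGTGT for T-box factors.
Cd3e chr9:45009612-45009861, minus strand: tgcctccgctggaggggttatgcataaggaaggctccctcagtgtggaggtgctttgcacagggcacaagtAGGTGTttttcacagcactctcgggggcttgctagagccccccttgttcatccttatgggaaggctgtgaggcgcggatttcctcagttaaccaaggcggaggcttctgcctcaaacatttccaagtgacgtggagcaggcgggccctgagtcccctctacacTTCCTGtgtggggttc
Cd3g chr9:44980432-44980681, minus strand: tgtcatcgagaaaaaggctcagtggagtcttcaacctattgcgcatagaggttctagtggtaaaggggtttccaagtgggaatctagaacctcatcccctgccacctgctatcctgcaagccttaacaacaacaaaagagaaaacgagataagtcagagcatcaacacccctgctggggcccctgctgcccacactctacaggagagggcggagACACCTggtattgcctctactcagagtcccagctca
Cd3d chr9:44981536-44981785, plus strand: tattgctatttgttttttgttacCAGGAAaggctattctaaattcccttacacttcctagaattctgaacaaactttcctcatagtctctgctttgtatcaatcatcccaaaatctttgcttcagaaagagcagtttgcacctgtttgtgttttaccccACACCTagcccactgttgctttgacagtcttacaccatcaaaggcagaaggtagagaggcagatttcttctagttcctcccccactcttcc
Each of the 3 held 1 T-box match, and Cd3e and Cd3d also held 1 ETS match each. Of all 32851 mouse promoters of this length in the table, 14.0% held the RUNX letters, 25.7% the ETS letters and 11.8% the T-box letters. Of the 24 members with an entry, 9, 11 and 9 held the letters in any of their promoters, which are counts of genes and not, as the shares are, of single promoters. The letters are short and a match describes the sequence only.

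The kinases Lck and Zap70 and the surface protein Cd5, all of the T cell receptor's pathway, rose as well. Lck, the kinase that phosphorylates the CD3 chains, was at 0.348, 0.257, 0.477 and 0.361 FPKM in WT and at 1.35, 1.41, 0.959 and 0.593 FPKM in the KO-labelled libraries. The groups did not overlap, and Lck rose by 0.84 ± 0.20 (adjusted p = 0.0137, 0.0231 without a filter and 0.0730 without WT2 and KO1). Zap70, the kinase that docks on the phosphorylated chains, was at 0.223, 0.181, 0.204 and 0.272 FPKM in WT and at 1.11, 0.764, 0.745 and 0.499 FPKM in the KO-labelled libraries. It rose by 0.81 ± 0.18 (adjusted p = 0.0101, and 0.0113 without a filter), a call kept in all 16 alternatives that could be fitted. Without KO1, KO2 or KO3, or without WT2 and KO1, Zap70 fell under the limit and was not fitted. All 4 WT values of Lck and of Zap70 were under 0.5 FPKM, so both passed the limit through the KO-labelled group. Cd5, which damps receptor signalling, lay at 0.0605 to 0.169 FPKM in WT and 0.365 to 0.730 FPKM in the KO-labelled libraries without overlap. It rose by 0.78 ± 0.14 (adjusted p = 0.00871), kept in all 18 alternatives.

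The remaining pan T cell genes did not separate the groups. Cd6, a relative of Cd5 next to it on chromosome 19, lay at 0.0956 to 0.415 FPKM in WT and 0.249 to 0.736 FPKM in the KO-labelled libraries, and its difference was 0.41 ± 0.22 (adjusted p = 0.275). Ptprcap, which binds the leukocyte phosphatase CD45, was at 1.23, 1.22, 1.74 and 0.834 FPKM in WT and at 3.07, 2.86, 1.43 and 2.22 FPKM in the KO-labelled libraries. KO3 lay below WT3. Ptprcap rose by 0.71 ± 0.22 (adjusted p = 0.0415), but the call was lost in 11 of 20 alternatives, the unfiltered fit among them, with adjusted p up to 0.155. Its exons overlap those of Coro1b and Rps6kb2, so it may share reads with them.

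Il7r, the receptor for the survival factor interleukin 7, was the pan T cell gene with the highest level and went no single way. It was at 2.34, 0.815, 1.27 and 7.87 FPKM across WT1 to WT4 and then at 2.51, 3.01, 2.65 and 1.0 FPKM in KO1 to KO4. WT4 was the highest of all 8 libraries and KO4 lay below WT1 and WT3. The difference was -0.04 ± 0.54 (adjusted p = 0.968), 0.50 without WT4 (adjusted p = 0.304) and 0.78 without WT4 and KO4 (adjusted p = 0.0657). WT4 also had the highest summed macrophage markers of WT and KO4 the lowest of the KO-labelled group, values given below. Their part in Il7r was not tested.

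All 3 coreceptor genes rose, and Cd4 had the highest ratio of group means among the 33 members. Cd4 (chromosome 6, 124864692 to 124888221) was at 0.0681, 0.0518, 0.108 and 0.141 FPKM in WT and at 1.04, 0.931, 0.901 and 0.711 FPKM in the KO-labelled libraries. Its mean went from 0.0923 ± 0.0403 to 0.895 ± 0.136 FPKM (SD), a ratio of 9.70, on 36 recovered reads in all WT libraries and 373 in all KO-labelled ones. Even the highest WT library was far below the lowest KO-labelled one. Cd4 rose by 1.23 ± 0.12 (adjusted p = 0.000577), a call kept in all 18 alternatives, and by 3.30 in the voom fit of reads (adjusted p = 9.77e-05). CD4 marks helper and regulatory T cells and is found on some myeloid cells as well.

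Cd8a and Cd8b1, which encode the chains of CD8 and neighbour each other on chromosome 6, also rose. Cd8a was at 0.0108, 0.115, 0.312 and 0.0112 FPKM in WT and at 0.887, 0.942, 0.375 and 0.411 FPKM in the KO-labelled libraries. Cd8b1 was at 0.0265, 0.0281, 0.324 and 0.0274 FPKM in WT and at 0.463, 0.798, 0.585 and 0.436 FPKM in the KO-labelled libraries. In both genes WT3 was the highest WT library and came near the lowest KO-labelled ones, and 3 WT libraries held 1 read of Cd8b1 each. The rise was 0.90 ± 0.23 for Cd8a (adjusted p = 0.0359) and 0.85 ± 0.19 for Cd8b1 (adjusted p = 0.0211). These calls were lost in 9 and 7 of 18 alternatives, with adjusted p up to 0.15 and 0.0891. They were lost without WT1, WT2 or KO2, for Cd8a also without WT4 or KO1, and for Cd8b1 also without KO3.

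Summed over the 3 CD3 genes and the 3 coreceptors, the level was 0.427, 0.407, 1.36 and 0.469 FPKM across WT1 to WT4 and then 4.18, 5.08, 3.24 and 2.51 FPKM in KO1 to KO4. The sum of WT3 was the highest of WT and stayed below KO4. In bulk tissue, more cells of a type and more RNA per cell cannot be told apart. Markers of other cells moved too. The sum of 10 macrophage markers was 476, 372, 397 and 1183 FPKM in WT and 1133, 1102, 869 and 485 FPKM in the KO-labelled libraries. In the main fit 4 of the 10 were called higher, beside 11.7% of all tested genes. WT4 had the highest macrophage sum of all 8 libraries and a T cell sum of 0.469 FPKM, whereas KO4, with a macrophage sum near that of WT1, had 2.51 FPKM. Relative to Ptprc, which encodes CD45 on all leukocytes, the T cell sum was 0.185, 0.247, 0.502 and 0.0893 in WT and 0.684, 0.760, 0.508 and 0.643 in the KO-labelled libraries. WT3 and KO3 lay close together on this ratio, and the others were apart.

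**Figure D2:**
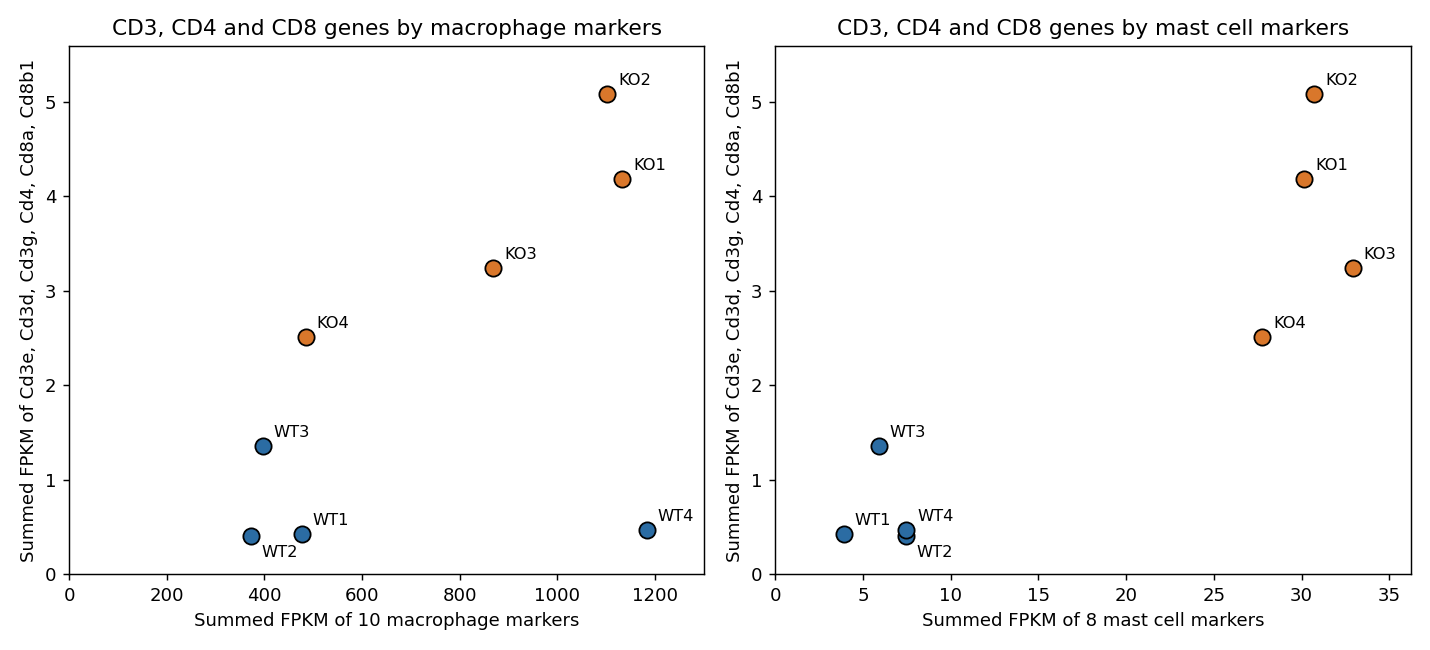
Summed FPKM of Cd3e, Cd3d, Cd3g, Cd4, Cd8a and Cd8b1 in each library (vertical axis) by the summed FPKM of 10 macrophage markers (left) and of 8 mast cell markers (right), WT in blue and KO-labelled in orange. WT4 lies far to the right in the macrophage panel at a T cell sum of 0.469 FPKM, and in the mast cell panel the groups sit apart, at 3.90 to 7.48 FPKM and 27.7 to 32.9 FPKM.

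Of 20 further genes of T cell receptor signalling and T cell identity, 9 passed the limit of 0.5 FPKM, of which 5 rose and 0 fell in the main fit (2 were lower at an unadjusted p under 0.05). Without a filter 6 of 20 were called higher and 0 lower, and voom called 9 of 18 higher and 1 lower. Over all genes the shares called higher were 11.7% in the main fit, 5.4% without a filter and 8.89% with voom. The shares called lower were 18.6%, 7.81% and 11.6%. The constant segments of the receptor's beta chain stood out. Trbc1 was at 0.419, 0.446, 0.699 and 1.36 FPKM in WT and at 3.67, 3.81, 2.37 and 3.18 FPKM in the KO-labelled libraries, a rise of 1.65 ± 0.24 (adjusted p = 0.00144). Trbc2 rose by 1.42 ± 0.27 (adjusted p = 0.00594). Tcf7, a transcription factor of naive and memory T cells, rose by 0.81 ± 0.17 (adjusted p = 0.00877), and Lat, the adaptor that ZAP70 phosphorylates, by 0.85 ± 0.19 (adjusted p = 0.0103). The calls of these 4 genes were kept in all alternatives that could be fitted. All 4 WT values of Tcf7 and of Lat were under 0.5 FPKM, so both passed the limit through the KO-labelled group. Their adjusted p in the unfiltered limma fit were 0.0134 and 0.0161. The 14 beta chain variable segments in the table, chosen after their values were seen, summed to 0.00, 0.468, 0.756 and 0.115 FPKM in WT and to 3.50, 3.40, 1.72 and 1.41 FPKM in the KO-labelled libraries.

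A pair of genes on that list, singled out after their values were seen, had lower means in the KO-labelled libraries. Trac, the constant segment of the alpha chain, was at 9.90, 3.21, 3.22 and 8.53 FPKM in WT and at 3.30, 3.14, 2.12 and 2.25 FPKM in the KO-labelled libraries. Cd247, the zeta chain of the receptor complex, was at 1.12, 0.893, 1.13 and 0.534 FPKM in WT and at 0.496, 0.513, 0.318 and 0.538 FPKM in the KO-labelled libraries. Neither passed limma's test, at -0.93 ± 0.36 (adjusted p = 0.0826) and -0.54 ± 0.18 (adjusted p = 0.0514). Cd247 was the gene that voom called lower, at -0.94 (adjusted p = 0.0357), and Trac was not called by it (adjusted p = 0.118). The 10 alpha chain variable segments in the table, summed after their values were seen, gave 0.176, 0.00, 0.00 and 0.271 FPKM in WT and 0.518, 0.923, 0.953 and 0.521 FPKM in the KO-labelled libraries. That sum was higher in all 4 KO-labelled libraries than in any WT library, unlike Trac. Exons of Cd247 overlap Pou2f1 on the other strand, and these values may share its reads. In WT, Trac was far above Trbc1 per length, and in the KO-labelled libraries the pair stood at similar levels.

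Regulatory T cell genes were scarce, and neither passed the test. Foxp3, the factor that defines these cells, was listed at 0 in WT1, where up to 0.0257 FPKM (3 reads) could be missed, and at 0.0209, 0.0437 and 0.0102 FPKM in WT2 to WT4. In KO1 to KO4 it was at 0.0602, 0.194, 0.238 and 0.132 FPKM, all above WT, but the difference of 0.33 ± 0.10 did not pass the test (adjusted p = 0.0570). Foxp3 was called in 5 of 18 alternatives, over which the adjusted p ranged from 0.0238 to 0.163. Its exons overlap Ppp1r3f, Ccdc22 and Flicr, so its reads may not all be its own. Ctla4, an inhibitory receptor, lay at 0 to 0.0717 FPKM in WT and at 0.0147, 0.490, 0.0709 and 0.104 FPKM in the KO-labelled libraries, with KO2 alone clearly higher (0.26 ± 0.19, adjusted p = 0.432). With limma, 0 of the 2 genes were called (1 at an unadjusted p under 0.05), and voom, which could read only Ctla4, called 0. Of 8 accessory genes of these cells, 3 were tested and 1 rose: Il2ra, a chain of the interleukin 2 receptor, by 0.40 ± 0.12 (adjusted p = 0.0392), lost in 11 of 20 alternatives with adjusted p up to 0.151. In the unfiltered fit 2 of the 8 were called higher and 0 lower. Of all genes 5.4% were called higher there, and 11.7% in the main fit. Voom called 3 of 7 higher and 0 lower, where 8.89% of all genes were called higher.

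The type 2 genes did not pass the test (limma, 0 of 2 called; voom, 0 called and 1 at an unadjusted p under 0.05). Il1rl1, which encodes the interleukin 33 receptor, was at 0.933, 0.830, 1.28 and 1.74 FPKM in WT and at 1.80, 1.98, 1.98 and 1.27 FPKM in the KO-labelled libraries. WT4 and KO4 crossed, and the difference was 0.43 ± 0.19 (adjusted p = 0.113), with an unadjusted p under 0.05 in the main fit but not in the unfiltered one; without these libraries it was 0.68 (adjusted p = 0.0106). Gata3, the factor of type 2 cells, lay at 0.0944 to 0.197 FPKM in WT and 0.142 to 0.388 FPKM in the KO-labelled libraries (0.20 ± 0.13, adjusted p = 0.394). Both genes are also expressed in other cells, Il1rl1 among them in mast cells. The sum of 8 mast cell markers was 3.90 to 7.48 FPKM in WT and 27.7 to 32.9 FPKM in the KO-labelled libraries. Of the 5 tested in the main fit 4 rose, beside 11.7% of all tested genes. Mcpt4 rose by 2.50 ± 0.16 (adjusted p = 3.44e-05). The part of mast cells in Il1rl1 was not tested. Of 8 accessory type 2 genes, 3 were tested and limma called 0, with 1 higher at an unadjusted p under 0.05. Without a filter it called 1 higher, as did voom. Over all genes 5.4% were called higher without a filter and 8.89% with voom.

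Among NK and cytotoxic genes, Il2rb had the largest difference on the log2(FPKM + 0.5) scale, whereas in the voom fit of reads that of the scarcer Eomes was larger (2.74 against 2.53). It encodes the shared beta chain of the receptors for interleukin 2 and interleukin 15, on which NK cells depend. Il2rb (chromosome 15, 78479256 to 78495271) was at 0.467, 0.185, 0.753 and 0.721 FPKM in WT and at 2.76, 3.28, 2.35 and 2.54 FPKM in the KO-labelled libraries. Its mean went from 0.531 ± 0.264 to 2.73 ± 0.402 FPKM (SD), a ratio of 5.15, on 220 and 1204 recovered reads. The groups lay far apart, and Il2rb rose by 1.68 ± 0.20 (adjusted p = 0.000600), kept in all 21 alternatives.

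Nkg7, a protein of cytotoxic granules, was at 0.858, 0.594, 1.38 and 0.623 FPKM in WT and at 5.33, 4.46, 3.48 and 2.12 FPKM in the KO-labelled libraries. It rose by 1.65 ± 0.27 (adjusted p = 0.00268). Klrd1, the CD94 chain of NK receptors, was at 1.01, 0.749, 0.715 and 1.08 FPKM in WT and at 1.26, 1.75, 2.16 and 2.68 FPKM in the KO-labelled libraries, a rise of 0.80 ± 0.19 (adjusted p = 0.0131). Neither gene's groups overlapped, and both calls were kept in all 21 alternatives. The order of the KO-labelled libraries differed between them: KO1 was the highest for Nkg7 and the lowest for Klrd1, and KO4 the reverse. In the CD3, CD4 and CD8 sum, KO4 was also the lowest of its group.

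Of the secreted effector proteins, granzyme B was called higher in the main fit but not without a filter, and granzyme A, perforin and interferon gamma did not pass the test. Gzmb, granzyme B, was at 0.246, 0.116, 0.243 and 0.227 FPKM in WT and at 0.550, 1.70, 0.431 and 0.984 FPKM in the KO-labelled libraries. The groups did not overlap, with KO2 the highest and KO3 the lowest of its group. All 4 WT values were under 0.5 FPKM, so Gzmb passed the limit through the KO-labelled group. Its difference was 0.92 ± 0.27 (adjusted p = 0.0320 in the main fit, 0.0511 without a filter and 0.0333 with voom). The call was lost in 9 of 19 alternatives with adjusted p up to 0.0939, by single library without WT1, WT2, WT3 or KO4. Without KO2, its highest library, Gzmb fell under the limit and was not fitted. Gzma, granzyme A, was at 1.05, 0.913, 1.17 and 0.606 FPKM in WT and at 0.887, 0.568, 0.657 and 1.08 FPKM in the KO-labelled libraries. Its groups lay over each other (-0.14 ± 0.18, 95% interval -0.55 to 0.26, adjusted p = 0.568). Perforin, Prf1, lay at 0.129 to 0.591 FPKM in WT and 0.320 to 0.578 FPKM in the KO-labelled libraries, where WT3 was the highest of all (0.30 ± 0.20, adjusted p = 0.382). Ifng, the cytokine interferon gamma, rested on 4 reads in WT and 11 in the KO-labelled libraries and was listed at 0 in WT2, WT3 and KO4, where 3 reads would be 0.0936 to 0.101 FPKM. Its difference was 0.13 ± 0.10 (adjusted p = 0.434).

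The promoters of Nkg7, which rose, and of Gzma, which did not pass the test, are shown side by side as cytotoxic genes of unlike behaviour, drawn as for the CD3 genes.
Nkg7 chr7:43436888-43437137, plus strand: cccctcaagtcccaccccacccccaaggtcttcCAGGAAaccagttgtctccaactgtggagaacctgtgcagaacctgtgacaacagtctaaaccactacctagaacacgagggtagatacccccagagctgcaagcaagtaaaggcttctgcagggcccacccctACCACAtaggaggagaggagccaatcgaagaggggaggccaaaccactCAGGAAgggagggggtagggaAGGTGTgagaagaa
Gzma chr13:113100982-113101231, minus strand: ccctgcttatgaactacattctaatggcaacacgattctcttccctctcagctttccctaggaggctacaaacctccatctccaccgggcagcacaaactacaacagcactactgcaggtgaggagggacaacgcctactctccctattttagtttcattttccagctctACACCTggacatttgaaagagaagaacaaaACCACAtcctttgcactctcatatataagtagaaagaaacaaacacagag
Both held 1 RUNX and 1 T-box match, and Nkg7 also held 2 ETS matches.

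The lineage factors of cytotoxic cells were low and higher in the KO-labelled fat. Tbx21, which encodes T-bet of T helper 1 and NK cells, was at 0.142, 0.185, 0.0526 and 0.147 FPKM in WT and at 0.552, 0.312, 0.465 and 0.487 FPKM in the KO-labelled libraries. It rose by 0.59 ± 0.13 (adjusted p = 0.0190), lost in 6 of 18 alternatives, by single library without WT1, WT3 or KO3, with adjusted p up to 0.0850. Eomes, the related factor of mature NK and memory CD8 T cells, was at 0.0283, 0.010, 0.0840 and 0.0196 FPKM in WT and at 0.116, 0.304, 0.308 and 0.194 FPKM in the KO-labelled libraries. The groups did not overlap in either gene. Eomes rose by 0.44 ± 0.12 (adjusted p = 0.0407), which was lost in 11 of 18 alternatives, with adjusted p up to 0.109, and when any single library but KO1 was left out.

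Neither of the receptors that help tell NK cells from cytotoxic T cells passed the test. Ncr1, the activating receptor NKp46 of NK cells and some innate lymphoid cells, was at 0.382, 0.163, 0.312 and 0.475 FPKM in WT and at 0.535, 0.371, 0.670 and 0.761 FPKM in the KO-labelled libraries. KO2 lay below WT1 and WT4, and the difference was 0.38 ± 0.17 (adjusted p = 0.192). Klrb1c, the NK1.1 receptor, lay at 0.127 to 0.309 FPKM in WT and 0.193 to 0.498 FPKM in the KO-labelled libraries (0.27 ± 0.15, adjusted p = 0.294), and its exons overlap the gene model Gm44511. Of the 11 NK and cytotoxic members, 5 were called higher without a filter. On the log2(FPKM + 0.5) scale the 95% intervals of Ncr1 and Klrb1c hold both 0 and the 0.44 of Eomes. That scale shrinks the change of the scarcer Eomes most. In the voom fit of reads Ncr1 and Klrb1c differed by 0.82 and 0.81, against 2.74 for Eomes.

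**Figure D3:**
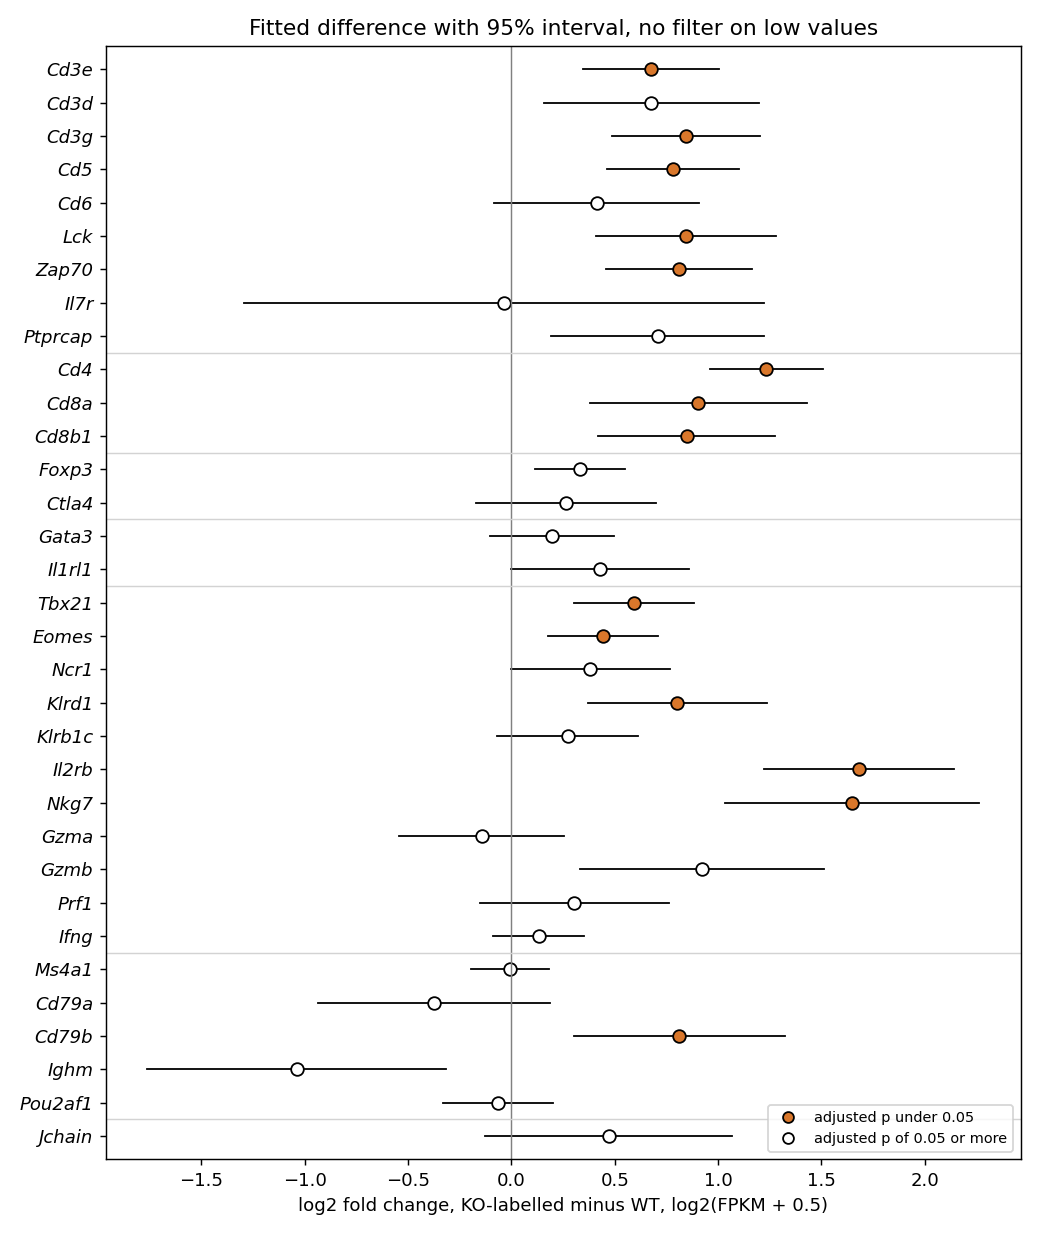
Log2 fold change (KO-labelled minus WT, log2(FPKM + 0.5) scale) of each gene in the unfiltered fit, with its 95% interval, in orange where the adjusted p was under 0.05 and open where it was not, with grey lines between lineages. Cd4 at 1.23, Il2rb at 1.68 and Nkg7 at 1.65 lie farthest to the right, and Il7r has the widest interval.

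Of 16 accessory NK and cytotoxic genes, 3 were tested and 2 rose, 0 falling (0 lower at an unadjusted p under 0.05). Without a filter 5 of 16 were called higher and 0 lower. Over all genes 11.7% were called higher and 18.6% lower in the main fit, and 5.4% and 7.81% without a filter. Ccl5, a chemokine made by cytotoxic and memory T cells, was at 2.53, 1.26, 2.73 and 2.08 FPKM in WT and at 9.40, 9.90, 7.10 and 5.81 FPKM in the KO-labelled libraries, a rise of 1.70 ± 0.22 (adjusted p = 0.000990). Ctsw, a protease of NK and CD8 T cells whose exons overlap Fibp on the other strand, rose by 1.18 ± 0.21 (adjusted p = 0.00439). Of 8 measured genes of gamma-delta T, NKT and type 17 cells, 4 were tested and 2 rose, among them Zbtb16, the factor of innate-like T cells, by 0.52 ± 0.12 (adjusted p = 0.0131). Zbtb16 stood at 5.65 to 6.16 FPKM in WT, well above every CD3 gene per length, and is expressed in other cells of fat as well.

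B cell genes did not share a direction. Ighm, the constant region of the IgM heavy chain, was the most abundant member at 62.4, 88.7, 103 and 37.7 FPKM across WT1 to WT4 and then 34.3, 38.8, 38.9 and 22.5 FPKM in KO1 to KO4. WT1, WT2 and WT3 lay above all KO-labelled libraries, and WT4 lay among them. The mean went from 72.8 ± 28.8 to 33.6 ± 7.74 FPKM (SD), and Ighm fell by 1.04 ± 0.31 on the log2 scale (adjusted p = 0.0365). The call was lost in 12 of 21 alternatives, with adjusted p up to 0.134, among them voom (0.0682), the unfiltered fit and the removal of any single library but WT4. Red blood cells, whose genes show how much blood stayed in the tissue, gave a marker sum of 255 to 678 FPKM in WT, WT4 again the lowest, and 150 to 478 FPKM in the KO-labelled libraries. The part of retained blood in Ighm was not tested.

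The partner chains of the receptor went different ways. Cd79b was at 0.768, 0.904, 0.701 and 1.25 FPKM in WT and at 2.95, 1.88, 2.11 and 1.16 FPKM in the KO-labelled libraries. KO4 lay below WT4, and Cd79b rose by 0.81 ± 0.22 (adjusted p = 0.0241), lost in 7 of 21 alternatives with adjusted p up to 0.0851, by single library without WT1, WT2, WT3, KO2 or KO3. Cd79a was at 0.350, 1.26, 0.449 and 0.502 FPKM in WT and at 0.542, 0.196, 0.425 and 0.249 FPKM in the KO-labelled libraries, with WT2 above all others. Its difference was -0.38 ± 0.25 (95% interval -0.94 to 0.19, adjusted p = 0.381). Ms4a1, which encodes the B cell surface protein CD20, lay at 0.0254 to 0.115 FPKM in WT and 0.0196 to 0.111 FPKM in the KO-labelled libraries (-0.01 ± 0.08, 95% interval -0.19 to 0.18, adjusted p = 0.983). Pou2af1, a coactivator of B cell genes, lay at 0.0479 to 0.222 and 0.0475 to 0.148 FPKM (-0.07 ± 0.12, adjusted p = 0.746). Both genes lay near or under 0.2 FPKM in every library, where the scale is compressed, and neither separated the groups.

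**Figure D4:**
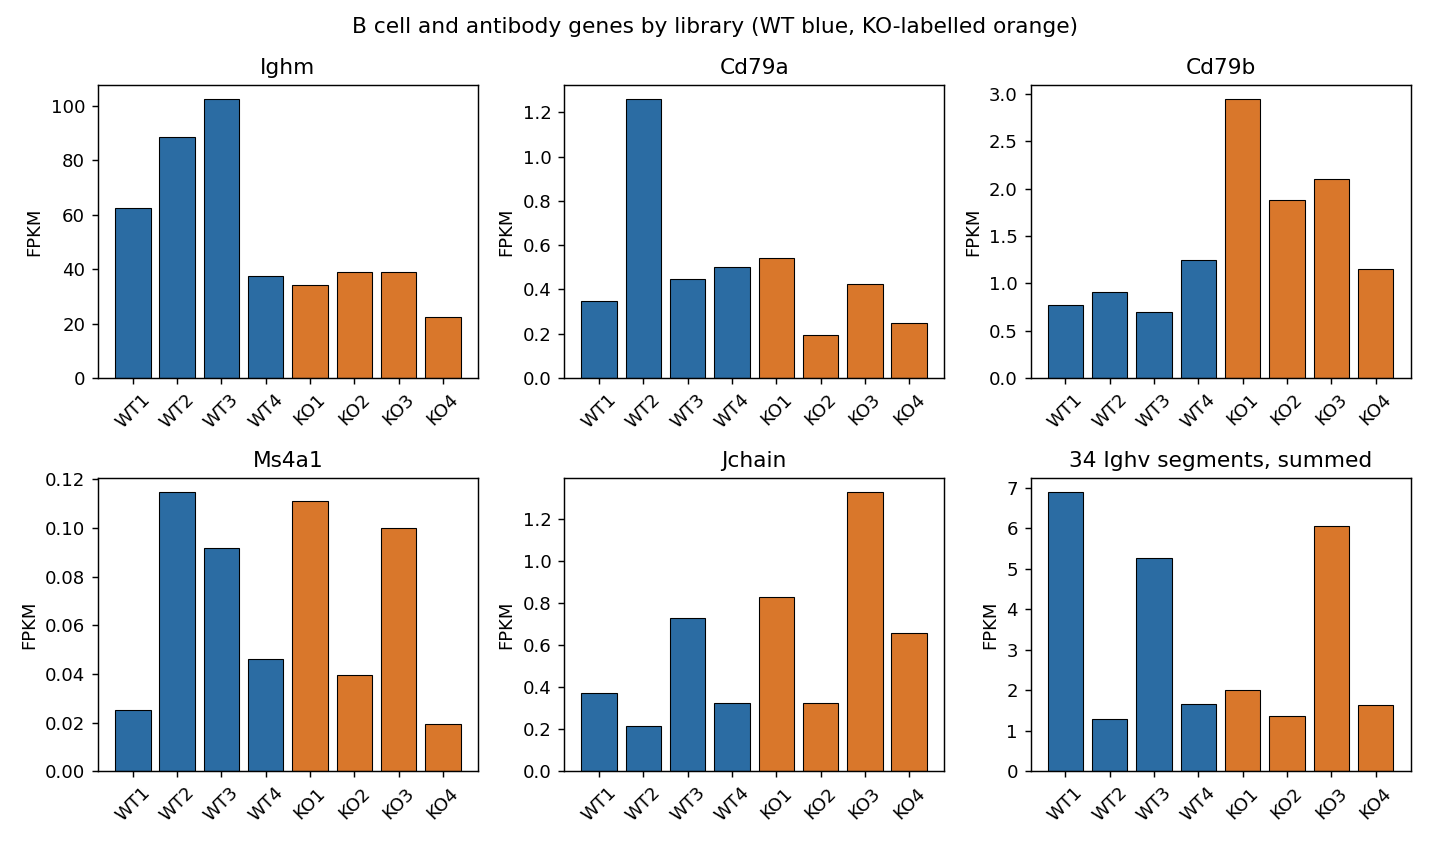
FPKM of 5 B cell and antibody genes and the summed FPKM of 34 heavy chain variable segments in each library, WT in blue and KO-labelled in orange, each panel on its own axis from 0. Ighm is high in WT1, WT2 and WT3, Cd79b is high in KO1, KO2 and KO3, and the segment sum is highest in WT1, WT3 and KO3.

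Antibody-secreting cells were read from Jchain, which links IgM and IgA into polymers. It was at 0.374, 0.216, 0.728 and 0.323 FPKM in WT and at 0.832, 0.324, 1.33 and 0.658 FPKM in the KO-labelled libraries. KO2 was as low as WT4, and the difference was 0.47 ± 0.27 (adjusted p = 0.215). The 34 heavy chain variable segments in the table, summed after their values were seen, gave 6.90, 1.30, 5.28 and 1.67 FPKM in WT and 2.0, 1.36, 6.05 and 1.65 FPKM in the KO-labelled libraries, in an order unlike that of Ighm. Of 9 accessory plasma cell genes, 7 were tested and 3 rose: Derl3, of protein export from the endoplasmic reticulum, by 1.12 ± 0.21 (adjusted p = 0.00482), Irf4, a factor of plasma cells and of several myeloid and T cells, by 0.92 ± 0.24 (adjusted p = 0.020), and Igha, the IgA constant region, by 0.84 ± 0.25 (adjusted p = 0.0338). The call of Igha was lost in 9 of 18 alternatives, the unfiltered fit among them, with adjusted p up to 0.138. In the remaining alternatives Igha fell under the limit and was not fitted. The call of Irf4 was lost in 3 of 21, without WT2, without KO3 and without WT2 and KO1 (up to 0.0911). Of 16 accessory B cell genes, 5 were tested and 1 rose: Cd72, a B cell coreceptor also found on macrophages, by 1.44 ± 0.38 (adjusted p = 0.0216), lost in 6 of 21 alternatives with adjusted p up to 0.0938. Exons of Cd72 overlap Tesk1 on the other strand. No accessory gene of either list was called lower by limma, where 2 plasma cell genes were lower at an unadjusted p under 0.05 in the main fit, or by voom. Of all genes tested in the main fit 11.7% were called higher and 18.6% lower, and voom called 11.6% lower.

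Ligands and receptors that guide lymphocytes were read beside the members. Of 12 attractants and growth factors tested in the main limma fit, 3 rose and 0 fell (1 lower at an unadjusted p under 0.05). Voom called 3 of 15 higher and 0 lower, and the unfiltered fit 4 of 18 entries higher and 0 lower. Over all genes the shares called higher were 11.7% in the main fit, 8.89% with voom and 5.4% without a filter. The shares called lower were 18.6%, 11.6% and 7.81%. Cxcl16, the ligand of CXCR6, was at 3.32, 2.65, 2.83 and 4.79 FPKM in WT and at 9.84, 9.29, 8.13 and 5.44 FPKM in the KO-labelled libraries, a rise of 1.15 ± 0.21 (adjusted p = 0.00490). Il15, the growth factor received through Il2rb, was at 2.69, 2.18, 3.01 and 2.64 FPKM in WT and at 3.76, 3.39, 3.36 and 3.89 FPKM in the KO-labelled libraries, a rise of 0.39 ± 0.10 (adjusted p = 0.0175). Cxcl13, the B cell attractant, rose by 1.72 ± 0.43 (adjusted p = 0.0184), ranging from 1.03 to 6.64 FPKM over the KO-labelled libraries. The call of Cxcl13 was lost in 4 of 21 alternatives, among them voom and the removal of WT1 (adjusted p up to 0.0662), and that of Il15 in 2 of 21, each without a pair of libraries (up to 0.0694). Exons of Cxcl16 overlap Zmynd15 on the other strand. Of 11 homing receptors tested in the main fit, 7 rose and 0 fell (1 lower unadjusted). Voom called 6 of 12 higher and 0 lower, and the unfiltered fit 5 of 12 higher and 0 lower. Cxcr6 rose by 1.28 ± 0.21 (adjusted p = 0.00289), Cxcr3, the receptor of cytotoxic and T helper 1 cells, by 1.12 ± 0.16 (adjusted p = 0.00128), Ccr7, of naive T cells and migrating dendritic cells, by 0.96 ± 0.13 (adjusted p = 0.00108), and Ccr2, shared with monocytes, by 1.09 ± 0.27 (adjusted p = 0.0176). The call of Ccr2 was lost with a replicate block, without WT1 and without WT2 and KO1 (adjusted p up to 0.0776). That of Cxcr6 was kept in all 19 alternatives that could be fitted, the unfiltered fit among them. In the remaining alternatives Cxcr6 fell under the limit and was not fitted.

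Counts of members called in the unfiltered fit stood by lineage at 5 of 9 for pan T cell genes, 3 of 3 for the coreceptors, 0 of 2 for regulatory T cells, 0 of 2 for type 2 cells, 5 of 11 for NK and cytotoxic genes, 1 of 5 for B cells and 0 of 1 for antibody-secreting cells, all higher, where 5.4% of all genes were called higher and 7.81% lower. In the same fit, at an unadjusted p under 0.05, the lineages with 0 calls had 1, 0 and 0 genes higher, and voom called 0 in each. Whether the lineages differed from each other was not tested. Summed by lineage, the FPKM of the 3 coreceptors went from 0.306 ± 0.294 in WT to 2.12 ± 0.503 in the KO-labelled libraries, that of the 11 NK and cytotoxic genes from 4.42 ± 1.0 to 12.4 ± 1.03 and that of the 5 B cell genes from 74.6 ± 28.8 to 36.2 ± 8.31 (SD, n = 4 each). Ighm made up nearly all of the last sum.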

How the data were processed

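Poly(A) RNA of 8 epididymal fat libraries was measured, 4 WT and 4 labelled KO. Per the labels, RNA was isolated with TRIzol, captured on poly-T beads and primed with random hexamers, with no step named that marks the strand. Per the submitters' processing notes, HISAT2 2.0.5, featureCounts and build mm10 were used. The annotation release and strand setting are not given in the sources used here, so overlapping genes may share reads. Among members, exons of Cd3e, Eomes and Gata3 also overlap antisense genes. The authors deposited 1 table of FPKM values for 28295 genes, with no counts. Coordinates are from GENCODE M21 (mm10), which matched 99.9% of the gene IDs.

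The 33 members were matched by symbol. The members, the 19 other gene lists and the tests were chosen with earlier results of these data known. The test was limma 3.58.1 in R 4.3.3 on log2(FPKM + 0.5) (trend, robust, two-sided, Benjamini-Hochberg) over the 14400 genes with a mean of at least 0.5 FPKM, and again without a filter, where the 20 lower members could be tested; calls needed an adjusted p under 0.05. Whole reads were recovered from the FPKM values and exon lengths for 97.2% of genes in all libraries, and 97.9% to 98.0% of values between 0.5 and 200 reads lay within 0.02 of a whole number. Voom on these reads called 14 of 29 members higher and was added after the data were seen, as were the fits without WT2 and KO1 and without WT4 and KO4. FPKM denominators were 22.9 to 29.1 times 1000000. The fits were tested on simulated data with 200 changed genes. These were drawn only from genes above a set number of reads per library, so that test does not cover the scarce members. Named genes were all members, Cul3 and up to 4 called genes per list by smallest adjusted p, or the 2 highest where none was called; others are said to be chosen after their values were seen, and a gene that the rule picks is not reported here. Other pseudocounts (0.1, 1), filters, scalings, array weights, a replicate block and each library left out were tried.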

Additional observations from a re-analysis of the deposited data

Results flagged for a closer look

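In 4 of 66 groups of 4 libraries, 1 library lay far from the other 3 (Dixon's ratio of the gap to the range, above its 95% critical value); chance flags about 1 in 20 groups. Cd8b1 was highest in WT3, at 0.324 FPKM, beside 0.0265 to 0.0281 FPKM in the other WT libraries. Prf1 was also highest in WT3 among WT, at 0.591 FPKM. Gzmb was lowest in WT2 among WT, at 0.116 FPKM. Cd79a was highest in WT2 among WT, at 1.26 FPKM.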

How the results depend on the processing

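Over the 33 members and all alternatives run, 517 fits kept the direction and the side of the threshold, 78 lost a call, 11 gained one and 15 turned the direction, none of these in a called gene. Among members called higher, Il2rb, Nkg7, Klrd1, Cd4 and Cd5 kept their call in every alternative that could be fitted. Zap70 did so too, but it was not fitted without KO1, KO2 or KO3, or without WT2 and KO1. Depth limits the scarce members: 20 lay under 0.5 FPKM, and Foxp3, Ctla4 and Ifng were listed at 0 in at least 1 library.

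From 8 members called higher in the main fit, the count became 3 without WT2 and KO1, 14 with no filter, 5 with a mean FPKM of at least 1 and 14 with voom. From 1 member, the members called lower became 0 with scaling to an equal sum, quantile normalization, no WT2 and KO1, no filter and voom. All genes called higher and all genes called lower became 4226 and 1190 under scaling to an equal sum, which shifts all genes. Cul3 then rose by 0.37 and was called higher (limma, adjusted p = 0.0477). Leaving out 1 library each gave 4 to 9 members higher, 0 to 1 lower, 1100 to 1938 and 1862 to 2794 genes, and 0.03 to 0.15 for Cul3.

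For members called higher without a filter, the count was 6 without WT2 and KO1, and 7 to 13 with 1 library left out; for members called lower without a filter, it was 1 with array weights or without WT4 and KO4, and 0 to 1 with 1 library left out. All genes called higher without a filter and all genes called lower without a filter were 3779 and 1030 under equal sums, 857 and 1121 without WT2 and KO1, and 813 to 1577 and 1254 to 2235 with 1 library left out. The cause of these shifts was not tested.

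The labels number the replicates in both groups, but same-numbered libraries did not deviate together (correlations -0.06, -0.13, 0.17 and -0.32). Differently numbered libraries of the 2 groups spanned a similar range, -0.23 to 0.21. Whether a shared number stands for a pairing cannot be told from these values. With a replicate block, the members called higher were 5 and all genes called higher 1113. Without a filter, members called higher without a filter were 5, members called lower without a filter 1, all genes called higher without a filter 679 and all genes called lower without a filter 1092.

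Reversals were small or rested on single libraries. Il7r, at -0.04, became 0.0036 with a pseudocount of 0.1, 0.26 under equal sums, 0.19 with array weights, 0.78 without WT4 and KO4, 0.0066 with voom and -0.39 to 0.50 with 1 library left out. Gzma became 0.038 under equal sums. Upk3b ranged from -0.0080 to 0.56 and Crisp1 from -0.13 to 2.60 with 1 library left out. Ms4a1 without a filter, at -0.01, became 0.082 under equal sums, 0.0055 with array weights, 0.017 without WT4 and KO4 and -0.043 to 0.036 with 1 library left out.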

Other observations

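Further genes of the other lists, singled out after their values were seen, stood apart between the groups at low levels. Gzmk, a granzyme of memory CD8 T cells, was listed at 0 in all 4 WT libraries and was at 0.371, 0.323, 0.297 and 0.262 FPKM in KO1 to KO4. Klrk1, the NKG2D receptor, lay at 0.180 to 0.292 FPKM in WT and 0.523 to 0.812 FPKM in the KO-labelled libraries (limma without a filter, adjusted p = 0.00960). Tcrg-C2, a constant segment of the gamma chain, lay at 0 to 0.191 FPKM in WT and 0.354 to 1.61 FPKM in the KO-labelled libraries (adjusted p = 0.0159), whereas Tcrg-C1 overlapped, at 0.127 to 1.18 and 0.262 to 0.894 FPKM. Vpreb3, known from B cell development, lay at 0 to 0.102 FPKM in WT and 0.160 to 0.760 FPKM in the KO-labelled libraries (adjusted p = 0.0222). Il12b, on the list of attractants and growth factors, encodes a subunit of interleukin 12, the cytokine that drives T helper 1 and NK responses. Its values lay at 0.0424 to 0.14 FPKM in WT and 0.483 to 0.871 FPKM in the KO-labelled libraries (adjusted p = 0.00501).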
